A study of Mus musculus with 4 samples.

Results

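The genes described here encode the nuclear-encoded parts of the mitochondrial oxidative phosphorylation system. They were chosen by the platform's gene symbol, with earlier results of these data known. The rule took every symbol beginning with Nduf, Uqcr, Cox4 to Cox8 or Atp5, and Sdha, Sdhb, Sdhc and Sdhd. This gave 89 genes of the 19938 with a probe set of a single symbol, of which 43 fell to complex I, 4 to complex II, 8 to complex III, 17 to complex IV and 17 to complex V. The prefixes take in more than subunits. By their known roles, 73 are structural subunits used in liver, and the others are assembly factors of complex I (Ndufaf genes), the paralog Ndufa4l2, the supercomplex factor Cox7a2l and complex IV isoforms of other tissues. Ndufa4 carries a complex I name but is now counted as a subunit of complex IV. Symbols met only in probe sets shared with another symbol, among them Cox7c and Ndufb4, were not analysed here.

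The oxidative phosphorylation system sits in the inner mitochondrial membrane. Complex I takes electrons from NADH and complex II takes them from succinate, both pass them through ubiquinone to complex III, and cytochrome c carries them on to complex IV, which reduces oxygen. The proton gradient built up on the way drives complex V, the ATP synthase. Hepatocytes rely on it to pay for gluconeogenesis and urea synthesis and to dispose of electrons from fatty acid oxidation. Transcription of the nuclear subunit genes is classically linked to the factors NRF1, GABPA (an ETS protein), YY1 and the estrogen-related receptors, with PGC-1 coactivators.

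Total RNA of mouse liver was hybridized to 4 Affymetrix Mouse Gene 1.0 ST arrays, 1 for each combination of 2 genotypes and 2 ages. The WT SIRT6 genotype (WT) and the SIRT6Co/Co ;Alb-Cre genotype (KO) were each sampled at 2 and at 8 months, and RNA from 3 pairs of mice was combined on each array. Cre under the albumin promoter acts in hepatocytes, and also, at least in part, in cholangiocytes, which share their precursor. Whether the WT mice carried the conditional allele or Cre was not given in the sources used here. There is 1 pool per group, so no difference at a single age can be tested, and the spread between animals cannot be measured.

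The Sirt6 probe set did not set the genotypes apart, reading 4.55 and 4.50 in WT and 4.54 and 4.46 in KO at 2 and 8 months on the log2 scale. The labels do not say which exons it covers. It therefore checks nothing, and the genotypes are called KO-labelled and WT-labelled below. All 10 hepatocyte markers, among them Alb, Ttr and Hnf4a, had mean levels from 9.10 to 12.55, and none passed the test for genotype. Closest to passing were Cps1, with KO minus WT of -0.19 and -0.29, and Apoa1, with -0.23 and -0.24 (limma adjusted p 0.059 and 0.060). Ttr went the other way, with 0.19 and 0.08. The median over the hepatocyte markers was 0.04 at 2 months and -0.05 at 8 months. Of 6 Kupffer cell markers 3 rose and 0 fell, with mean levels over the list of 4.80 and 4.76 in WT and 5.09 and 5.06 in KO at 2 and 8 months. Of 6 stellate cell markers 3 fell and 1 rose, with mean levels of 5.64 and 5.52 in WT and 5.17 and 5.10 in KO. Acta2 fell most, with KO minus WT of -1.86 and -2.01 at 2 and 8 months. Col1a1, at -0.81 and -0.30, and Col3a1, at -0.75 and -0.24, fell less. Reln rose, at 0.32 and 0.27, and Des and Lrat did not pass. Of 5 endothelial markers and of 2 measured erythroid ones 1 rose in each, where 6.81% of all genes tested rose and 4.26% fell. None of the cholangiocyte, brown fat and white fat markers passed. The part of these cells in the differences below was not tested, and in whole liver fewer cells of a type and less RNA per cell cannot be told apart.

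The promoters of the 5 genes that passed the test for genotype are shown first. Those of Atp5h and Atp5k follow, which did not pass and are among the 6 promoters with 2 of the NRF1, ETS and YY1 motifs. They are examples, taken in order of name from part of the 6. The motif counts below run over all genes of the list with a promoter. Each line gives the RefSeq promoter (build GRCm38.p6) from 250 bases before to 50 bases after the gene's start, 5′ to 3′ on the gene's strand. Capitals mark every match, on either strand, to the NRF1 motif, a palindrome of G and C around a central A and a free base, or to CCGGAAG (ETS), AAGATGGC (YY1), TCAAGGTCA (estrogen-related receptors) or GGGGCGGGG (SP1).
Ndufaf1, chr2:119662785-119663084, minus strand: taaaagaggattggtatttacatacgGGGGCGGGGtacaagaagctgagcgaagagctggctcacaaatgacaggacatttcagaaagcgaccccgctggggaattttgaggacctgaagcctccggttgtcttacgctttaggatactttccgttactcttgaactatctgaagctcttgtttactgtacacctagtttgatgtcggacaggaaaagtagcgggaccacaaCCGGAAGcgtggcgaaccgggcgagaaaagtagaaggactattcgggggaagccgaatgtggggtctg
Ndufb3, chr1:58586147-58586446, plus strand: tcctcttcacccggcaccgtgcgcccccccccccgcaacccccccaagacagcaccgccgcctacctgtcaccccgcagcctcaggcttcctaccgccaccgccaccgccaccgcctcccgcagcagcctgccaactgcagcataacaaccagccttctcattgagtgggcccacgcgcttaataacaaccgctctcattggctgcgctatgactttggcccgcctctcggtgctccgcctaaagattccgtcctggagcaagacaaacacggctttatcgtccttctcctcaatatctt
Cox6b2, chr7:4753045-4753344, minus strand: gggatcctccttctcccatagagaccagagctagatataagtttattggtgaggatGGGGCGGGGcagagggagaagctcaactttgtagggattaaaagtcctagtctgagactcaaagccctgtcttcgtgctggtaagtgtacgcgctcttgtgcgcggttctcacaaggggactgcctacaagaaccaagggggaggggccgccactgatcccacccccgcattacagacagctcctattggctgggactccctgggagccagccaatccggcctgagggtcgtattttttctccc
Ndufa1, chrX:37191189-37191488, minus strand: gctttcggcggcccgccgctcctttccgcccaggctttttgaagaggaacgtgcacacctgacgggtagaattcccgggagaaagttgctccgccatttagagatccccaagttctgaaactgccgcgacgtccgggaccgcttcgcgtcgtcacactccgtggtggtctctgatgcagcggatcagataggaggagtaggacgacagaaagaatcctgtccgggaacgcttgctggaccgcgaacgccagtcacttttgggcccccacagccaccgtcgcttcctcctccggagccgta
Ndufc2, chr7:97399753-97400052, plus strand: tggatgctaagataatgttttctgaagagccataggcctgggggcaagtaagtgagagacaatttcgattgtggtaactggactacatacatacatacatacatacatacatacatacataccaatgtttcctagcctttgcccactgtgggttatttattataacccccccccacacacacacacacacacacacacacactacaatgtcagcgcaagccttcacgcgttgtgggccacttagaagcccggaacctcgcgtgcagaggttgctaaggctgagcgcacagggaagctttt
Atp5h, chr11:115419870-115420169, minus strand: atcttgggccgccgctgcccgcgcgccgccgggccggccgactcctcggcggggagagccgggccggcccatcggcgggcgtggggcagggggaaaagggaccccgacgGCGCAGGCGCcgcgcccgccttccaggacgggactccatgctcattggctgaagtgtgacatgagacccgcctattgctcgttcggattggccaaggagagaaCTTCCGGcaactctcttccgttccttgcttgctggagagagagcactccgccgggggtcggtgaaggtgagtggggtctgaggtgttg
Atp5k, chr5:108434350-108434649, minus strand: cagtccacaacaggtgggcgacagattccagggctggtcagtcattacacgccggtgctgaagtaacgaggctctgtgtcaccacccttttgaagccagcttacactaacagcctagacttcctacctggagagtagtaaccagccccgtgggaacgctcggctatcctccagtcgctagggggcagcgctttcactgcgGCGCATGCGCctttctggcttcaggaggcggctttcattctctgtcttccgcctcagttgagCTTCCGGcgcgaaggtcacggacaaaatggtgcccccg

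Few oxidative phosphorylation genes passed the test for genotype, 4 of complex I and 1 of complex IV. Genotype and age were fitted as additive terms in limma over the 11963 genes above the filter, with Benjamini-Hochberg adjustment, and these included 83 of the 89 genes. Of these, 4 rose in the KO-labelled arrays and 1 fell, or 4.82% and 1.2%, against 6.81% and 4.26% of all genes in the fit. The split depended on scaling: after quantile normalization again 6 rose and 4 fell (897 and 864 of all genes, against 815 and 510 here), and with arrays centred on their medians 4 rose and 0 fell (901 and 392). Complex V genes passed under some alternatives, Atp5md under 4 of the 7 fits and Atp5g2 under 2. The genes that rose were Ndufaf1, Ndufb3 and Ndufa1 of complex I and Cox6b2 of complex IV, and the gene that fell was Ndufc2 of complex I. At an unadjusted p under 0.05, 15 of the 83 genes were higher and 6 lower. Of all 11963 genes, 1741 (14.6%) were higher and 1246 (10.4%) lower. The model has 1 residual degree of freedom per gene, which is moderated across genes, so its p-values weigh a difference against the departure of these 4 pools from additivity and not against the spread between animals.

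Ndufaf1 (also known as CIA30) is a chaperone that helps build the membrane arm of complex I. It read 6.28 in WT and 7.22 in KO at 2 months, and 6.78 in WT and 7.22 in KO at 8 months. Both KO-labelled arrays lay above both WT-labelled ones, and the WT-labelled array of 2 months was the lowest of the 4. The mean difference was 0.69 (SE 0.12, 2 arrays per genotype), with a limma adjusted p of 0.00172. It was also the gene with the largest difference between the ages in WT, 0.50, against 0.00 in KO.

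Ndufb3 is an accessory subunit of the membrane arm of complex I. It read 5.30 and 5.08 in WT and 5.98 and 5.72 in KO at 2 and 8 months. The KO-labelled arrays were higher by nearly the same amount at both ages, 0.68 and 0.64, without overlap, and the mean difference was 0.66 (SE 0.11, limma adjusted p 0.00187). Ndufa1, a small membrane subunit needed early in complex I assembly, read 7.11 and 7.22 in WT and 7.60 and 7.39 in KO. Its arrays did not overlap either, though the difference was 0.48 at 2 months and 0.18 at 8 months, and the mean, 0.33 (SE 0.10), was close to the threshold at a limma adjusted p of 0.048.

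Cox6b2 is the testis isoform of the complex IV subunit that faces the intermembrane space. It read 5.30 and 5.20 in WT and 5.81 and 5.71 in KO, a difference of 0.51 at each age (SE of the mean difference 0.11, limma adjusted p 0.011). The somatic isoform Cox6b1 went the other way, with 9.06 and 8.93 in WT and 8.85 and 8.76 in KO, but did not pass (limma adjusted p 0.15). The 4 testis markers, protamine and transition protein genes, had mean levels of 3.29 and 3.29 in WT and 3.22 and 3.38 in KO, and none of the 2 in the fit passed.

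Ndufc2, an accessory subunit of the membrane arm of complex I, was the only gene of the 83 that fell. It read 9.07 and 8.97 in WT and 8.73 and 8.75 in KO, with differences of -0.35 and -0.22 (SE of the mean difference 0.08, limma adjusted p 0.038). Both KO-labelled arrays were below both WT-labelled ones. Its call and that of Ndufa1 were lost without the filter (limma adjusted p 0.106 and 0.143), without the intensity trend (0.157 and 0.139) and when arrays were centred on their medians (0.233 and 0.0513). Ndufaf1, Ndufb3 and Cox6b2 passed under all 7 alternative fits that were run.

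**Figure D1:**
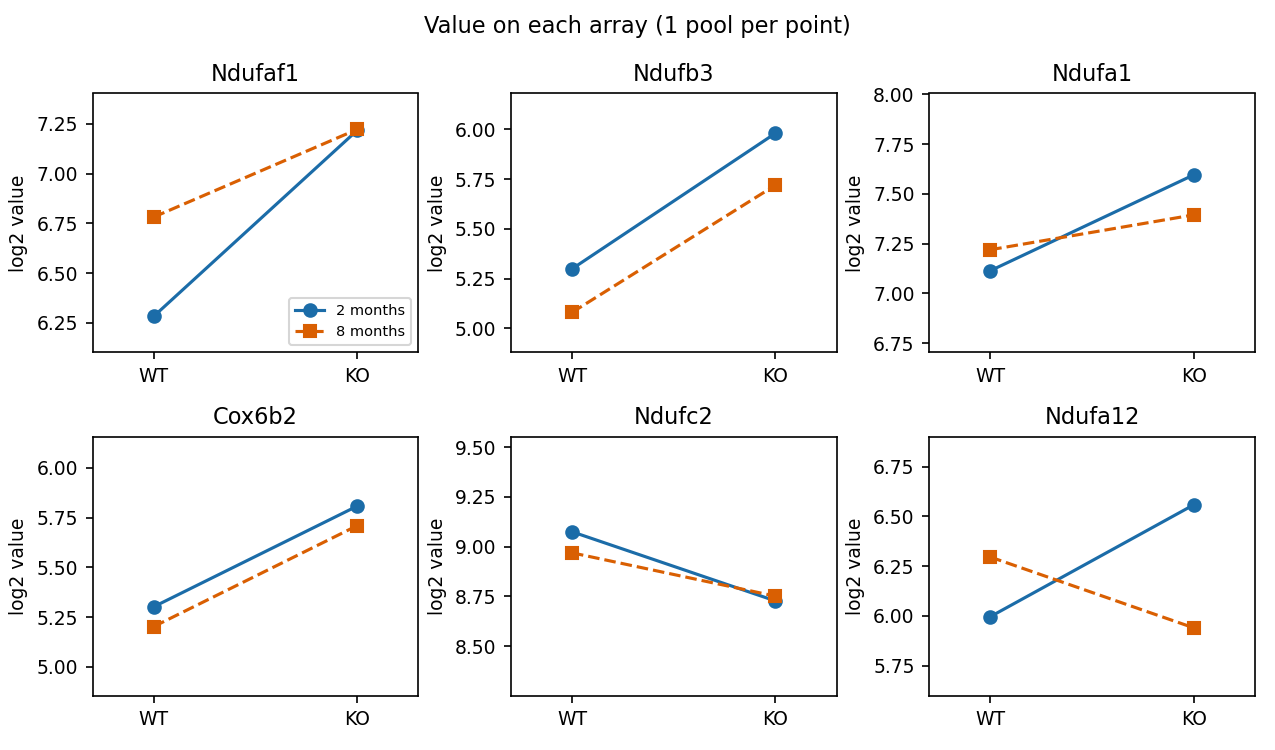
Log2 value (vertical axis) of 6 genes in WT-labelled and KO-labelled liver (horizontal axis), with circles and solid lines for 2 months and squares and dashed lines for 8 months, 1 pool per point and the same vertical span in every panel. The lines of Ndufb3 and Cox6b2 run in parallel, Ndufc2 is the panel with 2 falling lines, and the lines of Ndufa12 run in opposite directions.

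Over all 83 genes, the 5 that passed included, the genotypes differed less than over genes at large. The difference had an SD of 0.24 at 2 months and 0.18 at 8 months, against 0.35 and 0.30 over all genes in the fit. Past 1.2-fold at 2 months lay 12 genes above the WT-labelled array and 3 below it, or 14.5% and 3.61% against 18.1% and 15.9% of all genes. Among the 3988 genes above the 80th percentile of the mean value, 906 were that much higher and 362 lower, and among the 70 oxidative phosphorylation genes there 9 and 1. At 8 months these numbers were 7 and 3, or 8.43% and 3.61% against 12.0% and 11.0%. Only Ndufaf1, Ndufb3 and Atp5md reached 1.5-fold at 2 months, all higher, and only Ndufb3 did at 8 months, where 3.98% of all genes were that much higher at 2 months and 2.41% at 8 months.

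Direction was evenly split. Both KO-labelled arrays were above both WT-labelled ones for 24 genes and below them for 22, or 28.9% and 26.5%, against 29.1% and 25.7% of all genes. KO minus WT was above 0 at both ages for 27 genes and below 0 at both for 29, or 32.5% and 34.9%, against 34.4% and 31.8%. The median difference over the 83 genes was 0.02 at 2 months and -0.02 at 8 months, against 0.01 and 0 over all genes. At 2 months it moved with the scaling, to 0.10 with arrays centred on their medians (all genes 0.09), -0.04 after quantile normalization again (all genes -0.01) and -0.05 under cyclic loess (all genes 0.0016). On the deposited scale at 2 months the 3988 genes above the 80th percentile of the mean value had a median of 0.08, and the 70 oxidative phosphorylation genes among them had 0.02. The differences at the 2 ages, which share no array, were correlated across the 83 genes (Pearson 0.47, Spearman 0.45), and across all genes in the fit at 0.68 and 0.50. This describes genes read on the same 4 arrays, which are not independent replicates.

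**Figure D2:**
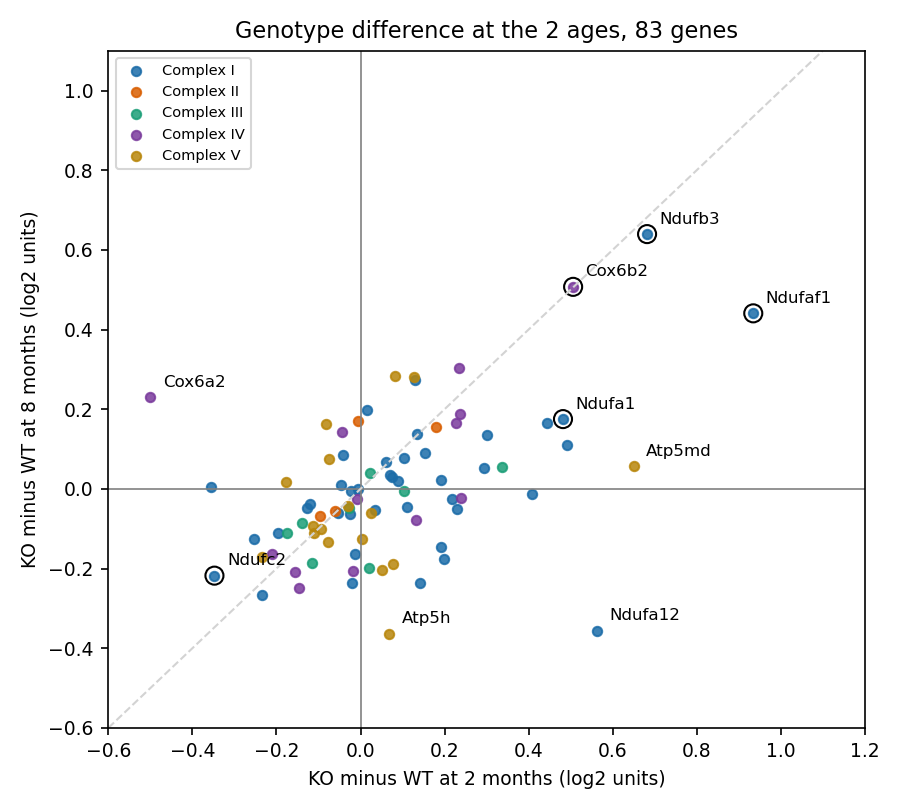
KO minus WT in log2 units at 2 months (horizontal axis) and at 8 months (vertical axis) for the 83 genes in the fit, coloured by complex, with the 5 genes that passed the test circled and the line of equal differences dashed. Most points lie within 0.3 of 0 on both axes, Ndufb3 and Cox6b2 lie near the dashed line, and Ndufa12 lies in the lower right, higher at 2 months and lower at 8 months.

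Complex I, with 41 of the 83 genes in the fit, the most of any complex, held 4 of the 5 that passed. Of its 41 genes 3 rose and 1 fell, where 6.81% of all genes in the fit rose and 4.26% fell. Whether complex I differed from the other complexes in this was not tested. The 41 complex I genes had a median KO minus WT of 0.09 at 2 months, with 26 above 0 and 15 below. At 8 months their median was -0.00082, with 20 above and 21 below. The 3988 genes above the 80th percentile of the mean value had a median of 0.08 at 2 months, with 2533 above 0 and 1454 below. Averaged over the ages, the complex I median was 0.05. It was 0.09 with arrays centred on their medians, -0.0032 after quantile normalization again and 0.011 under cyclic loess. The core subunits carry the flavin and the iron-sulfur clusters. Of the 6 measured, Ndufs1 was at 0.29 and 0.05, Ndufs8 at 0.13 and 0.27, and Ndufs7 at -0.25 and -0.13 at 2 and 8 months, and none passed. Ndufv1, which binds NADH, was at -0.05 and -0.06.

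Among the accessory subunits, Ndufab1, the mitochondrial acyl carrier protein that also serves lipoic acid synthesis, came closest to passing, with a limma adjusted p of 0.054, and passed under 4 of the 7 alternative fits (0.0336 to 0.0377). It read 7.52 and 7.65 in WT and 7.97 and 7.82 in KO, and its 2 probe sets were at 0.46 and 0.42 at 2 months. Ndufs4, whose loss causes Leigh syndrome in people and a like disease in mice, was at 0.49 and 0.11 (limma adjusted p 0.083). At the other end Ndufa7 was at -0.36 and 0.0043, and Ndufa13 (GRIM-19), at -0.24 and -0.27, had a limma adjusted p of 0.18. All 6 Ndufaf assembly factors in the fit were above 0 at 2 months and 4 of them at both ages, but after Ndufaf1 the largest was Ndufaf6, at 0.41 and -0.01. Of all 11963 genes, 6256 were above 0 at 2 months and 34.4% at both ages. Of the 34 assembly factors outside the prefixes, which serve several complexes, 20 were above 0 at 2 months and 11 at both ages. Ndufa12, an accessory subunit and paralog of the assembly factor Ndufaf2, was at 0.56 and -0.36, the only gene of the 83 past 1.2-fold in opposite directions at the 2 ages, as 0.802% of all genes were.

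Complex II, succinate dehydrogenase, which also belongs to the tricarboxylic acid cycle, barely differed. The flavoprotein Sdha read 9.65 and 9.64 in WT and 9.83 and 9.79 in KO, and did not pass (limma adjusted p 0.19). The iron-sulfur subunit Sdhb read 8.28 and 8.26 in WT and 8.18 and 8.19 in KO. These catalytic partners lay on opposite sides, by 0.18 and 0.15 for Sdha and by -0.10 and -0.07 for Sdhb. Sdhb did not pass either (limma adjusted p 0.59). Neither overlapped between the genotypes, which is common, as 29.1% of all genes in the fit lay above without overlap and 25.7% below. Of the membrane anchors, Sdhc read 9.02 and 8.95 in WT and 9.02 and 9.12 in KO, and Sdhd 8.41 and 8.38 in WT and 8.35 and 8.33 in KO. No complex II gene was 1.2-fold apart at either age.

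Complex III, the cytochrome bc1 complex, had medians of -0.0035 and -0.07 over 8 genes, and none passed. Uqcrb, which lies by the ubiquinone pocket, was the highest, with 9.27 and 9.43 in WT and 9.61 and 9.48 in KO, and was the complex III gene that was 1.2-fold apart, at 2 months. Uqcrh, the hinge protein, was the lowest by mean difference, with 8.65 and 8.67 in WT and 8.53 and 8.48 in KO. The core proteins Uqcrc1 and Uqcrc2 were at 0.02 and 0.04, and 0.10 and -0.0061. The Rieske subunit Uqcrfs1 was at 0.02 and -0.20.

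Complex IV, cytochrome c oxidase, held subunits on both sides of 0, with medians of -0.01 and -0.02 over 13 genes. Above 0 at both ages were Cox6b2, described above, Cox8a, Cox5b, at 0.24 and 0.19, and Cox6c, at 0.23 and 0.17. Cox8a read 7.61 and 7.61 in WT and 7.84 and 7.91 in KO (limma adjusted p 0.060). Below 0 at both ages were Cox4i1, which holds the regulatory ATP site, with 9.06 and 9.04 in WT and 8.91 and 8.79 in KO, Cox6b1 and the supercomplex factor Cox7a2l, at -0.16 and -0.21. Cox5a, at -0.02 and -0.21, and Cox7a2 were also below 0 at both ages. Cox4i1 and Cox6b1 did not pass here (limma adjusted p 0.14 and 0.15) and passed as lower after quantile normalization was applied again and under cyclic loess.

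Complex V had the lowest medians at 8 months, -0.09 against -0.03 at 2 months over 17 genes, and none passed. In the F1 head, which holds the catalytic sites, Atp5a1 read 10.89 and 10.92 in WT and 10.80 and 10.82 in KO, and Atp5b 10.84 and 10.84 in WT and 10.81 and 10.80 in KO. Of the 5 F1 genes, 3 had both KO-labelled arrays below both WT-labelled ones, by 0.03 to 0.11, where 25.7% of all genes did. The remaining 2 overlapped, Atp5c1, at 0.0037 and -0.13, and Atp5e, at 0.08 and 0.28, the latter past 1.2-fold at 8 months. The highest gene was Atp5md (DAPIT), a small subunit of the membrane part linked to dimers of the enzyme, with 7.69 and 7.94 in WT and 8.34 and 8.00 in KO. Its 3 probe sets were at 0.58, 0.67 and 0.70 at 2 months, but at 8 months the difference was 0.06 and it did not pass (limma adjusted p 0.076). It passed as higher under 4 of the 7 alternative fits, with limma adjusted p from 0.0318 to 0.043, and in the other 3 its adjusted p was 0.0802 to 0.228. Atp5h, a stalk subunit, was the lowest at 8 months, at -0.36, and was at 0.07 at 2 months.

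**Figure D3:**
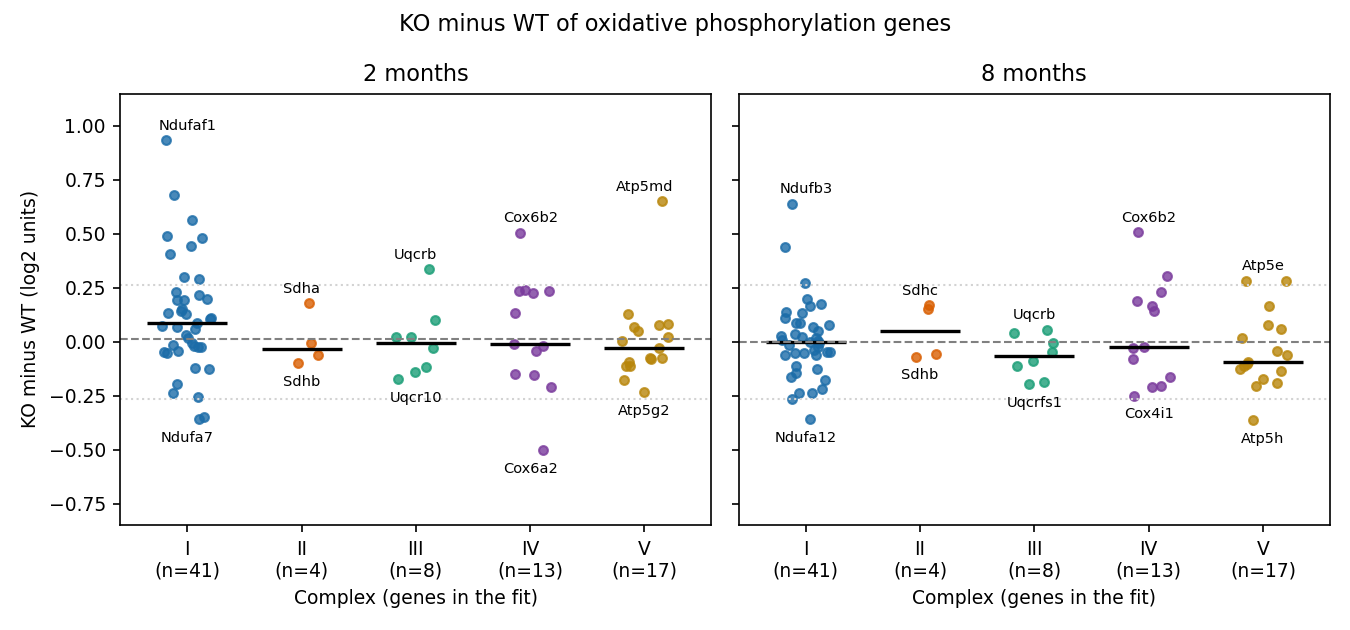
KO minus WT in log2 units (vertical axis) of each gene in the fit by complex (horizontal axis), at 2 months on the left and 8 months on the right, with black bars at the medians, a dashed line at the median of all genes and dotted lines at 1.2-fold. Complex I reaches from -0.36 to 0.93 at 2 months, complex II stays inside the dotted lines at both ages, and the median of complex V lies at -0.09 at 8 months.

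Several subunits exist as isoforms for different tissues, and most of the forms of other tissues were not measured above the filter. The isoforms of heart and skeletal muscle, Cox7a1 and Cox8b, and those of testis, Cox7b2 and Cox8c, had mean values at or below the filter of 3.34, as had Ndufa4l2 and the assembly factor Ndufaf5. These 6 genes ranged from 1.94 to 3.42 over the 4 arrays. The muscle form Cox6a2 was measured at 4.46 and 4.33 in WT and 3.96 and 4.56 in KO, so its direction was opposite at the 2 ages, at -0.50 and 0.23. The hypoxia-linked form Cox4i2 read 3.66 and 3.79 in WT and 3.62 and 3.93 in KO. Of the liver forms, Cox6a1 was at 0.13 and -0.08, Cox7a2 at -0.0087 and -0.03, and Cox7b at 0.24 and -0.02. The mean level of the 11 muscle markers was 3.47 and 3.42 in WT and 3.34 and 3.37 in KO, and none of the 6 in the fit passed.

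The c-ring of the ATP synthase is made from 3 genes that encode the same mature protein behind different targeting sequences. Atp5g2 read 8.24 and 8.18 in WT and 8.01 and 8.01 in KO, and its 3 probe sets were between -0.26 and -0.22 at 2 months. Atp5g3 read 10.32 and 10.35 in WT and 10.20 and 10.26 in KO. Atp5g1, the form that varies with demand in brown fat, overlapped between the genotypes, at -0.08 and 0.08. None passed, and Atp5g2 passed as lower under quantile normalization again and cyclic loess.

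Age made less difference than genotype. None of the 83 genes passed for age, against 0% of all genes that rose and 0.00836% that fell, which was a single gene. At an unadjusted p under 0.05 in limma, 1 of the 83 genes was higher at 8 months, Ndufaf1, and 0 were lower. Of all 11963 genes, 177 (1.48%) were higher and 254 (2.12%) lower. In WT 3 genes were at least 1.2-fold apart, or 3.61% against 10.2% of all genes: Ndufaf1 at 0.50, Ndufa12 at 0.30 and Atp5e, the smallest F1 subunit, at -0.30. In KO 7 genes were, or 8.43% against 14.9%, among them Cox6a2 at 0.60 and Ndufa12 at -0.62. The direction was down in both genotypes for 27 genes and up in both for 11, or 32.5% and 13%, against 27.0% and 19.6% of all genes. Among the 3988 genes above the 80th percentile of the mean value these shares were 30.8% and 11.1%. The 70 oxidative phosphorylation genes there had nearly the same shares, 31.4% and 11.4%.

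In KO 57 of the 83 genes were lower at 8 than at 2 months, with a median of -0.06, whereas in WT 41 were higher and 41 lower. All genes in the fit had a median of -0.03 in KO, and the 3988 genes above the 80th percentile of the mean value had -0.07, with 3023 of them lower. The complexes had medians between -0.08 for complex IV and -0.0055 for complex II in KO, and between -0.02 and 0.03 in WT. By the mean of both genotypes, Ndufb3 was the lowest complex I gene, at -0.22 in WT and -0.26 in KO, Uqcrfs1 the lowest of complex III, at -0.04 and -0.26, and Cox6b1 the lowest of complex IV, at -0.14 and -0.09. The highest of complex III and V were Uqcr11, at 0.09 and 0.07, and Atp5j, at -0.05 and 0.15.

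**Figure D4:**
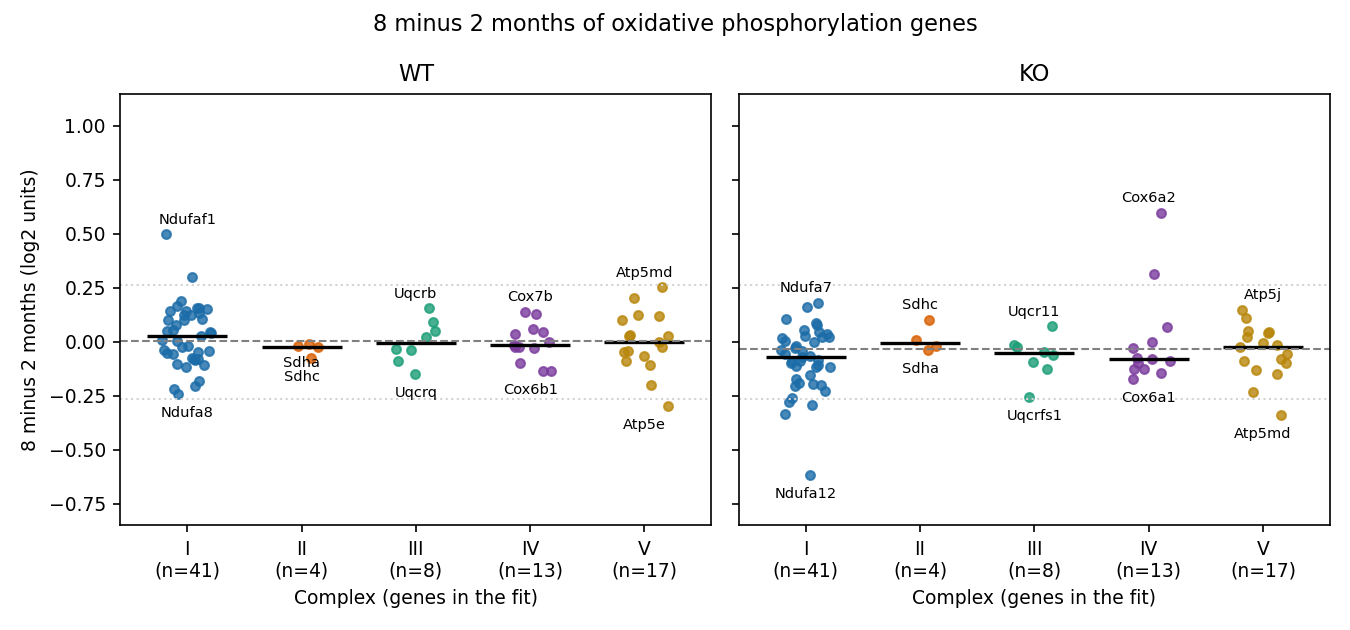
The difference of 8 minus 2 months in log2 units (vertical axis) of each gene in the fit by complex (horizontal axis), in WT-labelled arrays on the left and KO-labelled arrays on the right, with black bars at the medians, a dashed line at the median of all genes and dotted lines at 1.2-fold. Few genes cross the dotted lines, Ndufaf1 at 0.50 in WT and Cox6a2 at 0.60 and Ndufa12 at -0.62 in KO being the farthest out.

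The promoters held the letters classically tied to this system more often than promoters at large. Of the 89 genes, 73 had a RefSeq promoter of this window. The NRF1 motif was in 18 of them (24.7%) against 7.85% of 15614 genes of the array with a promoter, and the ETS motif also in 18 (24.7%) against 13.6%. The YY1 motif was in 10 (13.7%) against 3.77%, 7 of them in complex I and 3 in complex V, and the estrogen-related receptor motif in 2 (2.74%) against 0.346%. The SP1 motif was in 12 (16.4%) against 18.7%. Matches of different motifs did not overlap in these promoters. A match is a description and no sign of binding.

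Of the 73 promoters 33 held none of the NRF1, ETS and YY1 motifs. Among the 5 genes that passed, as the printed promoters show, Ndufb3, Ndufa1 and Ndufc2 held no match, Cox6b2 held 1 to SP1, 194 bases before the start, and Ndufaf1 held an ETS match 18 bases before the start and an SP1 match at 224. Atp5h and Atp5k held the NRF1 and ETS motifs together. Genes with the NRF1 motif had a median KO minus WT of 0.0037 at 2 months and -0.06 at 8 months (17 in the fit), and those without it 0.07 and -0.03 (52). For the ETS motif the medians were 0.02 with it (18) and 0.02 without it (51) at 2 months and -0.04 in both at 8 months. For the YY1 motif they were 0.05 with it (10) and 0.02 without it (59) at 2 months, and -0.01 and -0.04 at 8 months. These medians are descriptions with no test. The factors themselves did not pass. At 2 and 8 months Nrf1 was at -0.0022 and 0.13, Gabpa at 0.23 and -0.13, and Yy1 at -0.11 and -0.14. Of the estrogen-related receptors, Esrra was at -0.35 and -0.18 and Esrrg at -0.76 and -0.10.

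Around the complexes, the genes of the tricarboxylic acid cycle and pyruvate dehydrogenase had the highest median of the lists at 2 months, 0.17, and 0.03 at 8 months over 18 genes, of which 3 rose and 1 fell. Idh2, the NADP-dependent isocitrate dehydrogenase, rose, with 0.62 and 0.53 (limma adjusted p 0.00055), as did Pdha1, the E1 subunit of pyruvate dehydrogenase, with 0.38 and 0.49, and Suclg2 with 0.55 and 0.31. Pyruvate carboxylase (Pcx) fell, with -0.43 and -0.33 (limma adjusted p 0.0061), and Ogdh was at -0.18 and -0.26. Of 19 regulators, Lonp1, the mitochondrial protease, rose, with 0.35 and 0.32. The coactivator Ppargc1b fell, with -0.64 and -0.56, as did the mitochondrial rRNA methyltransferase Tfb1m, with -0.47 and -0.51. Ppargc1a was at 0.65 and 0.21 and the mitochondrial DNA packaging factor Tfam at 0.71 and 0.14, and neither passed (limma adjusted p 0.076 and 0.057).

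Of 20 subunits and electron carriers that the prefixes leave out, 2 rose and 0 fell, Coq10b, a ubiquinone-binding protein, with 0.66 and 0.59, and the glycerol phosphate dehydrogenase Gpd2 with 0.28 and 0.33. The lowest by mean difference were Coq7, at -0.31 at both ages, and Dhodh, at -0.34 and -0.05. Cytochrome c (Cycs) was at 0.63 at 2 months and 0.02 at 8 months, and cytochrome c1 (Cyc1), a catalytic subunit of complex III, at -0.07 and -0.20. Of 34 assembly factors outside the prefixes 3 rose and 0 fell, Sdhaf1 with 0.42 and 0.36, Foxred1 with 0.29 and 0.35, and Coa5 with 0.40 and 0.21. By mean difference the lowest were Coa7, at -0.23 and -0.47, and Uqcc3, at 0.08 and -0.44. The 2 subunits of the mitochondrial genome that could be read, COX2 and ND3, were at 0.13 and -0.02, and -0.0033 and -0.19.

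Of 76 mitochondrial ribosomal proteins, which translate the subunits encoded in the mitochondrial genome, 3 rose and 2 fell, with medians of 0.11 and 0.03. Mrpl50 rose most by mean difference, with 0.63 and 0.34, followed by Mrpl19, with 0.42 and 0.53. Mrpl23 and Mrpl30 fell, with -0.38 and -0.59, and -0.41 and -0.35. In 30 of the 76 both KO-labelled arrays were above both WT-labelled ones, and in 8 they were below, where all genes had 29.1% and 25.7%. The calls in these lists stand against the same 6.81% and 4.26% of all genes.

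**Figure D5:**
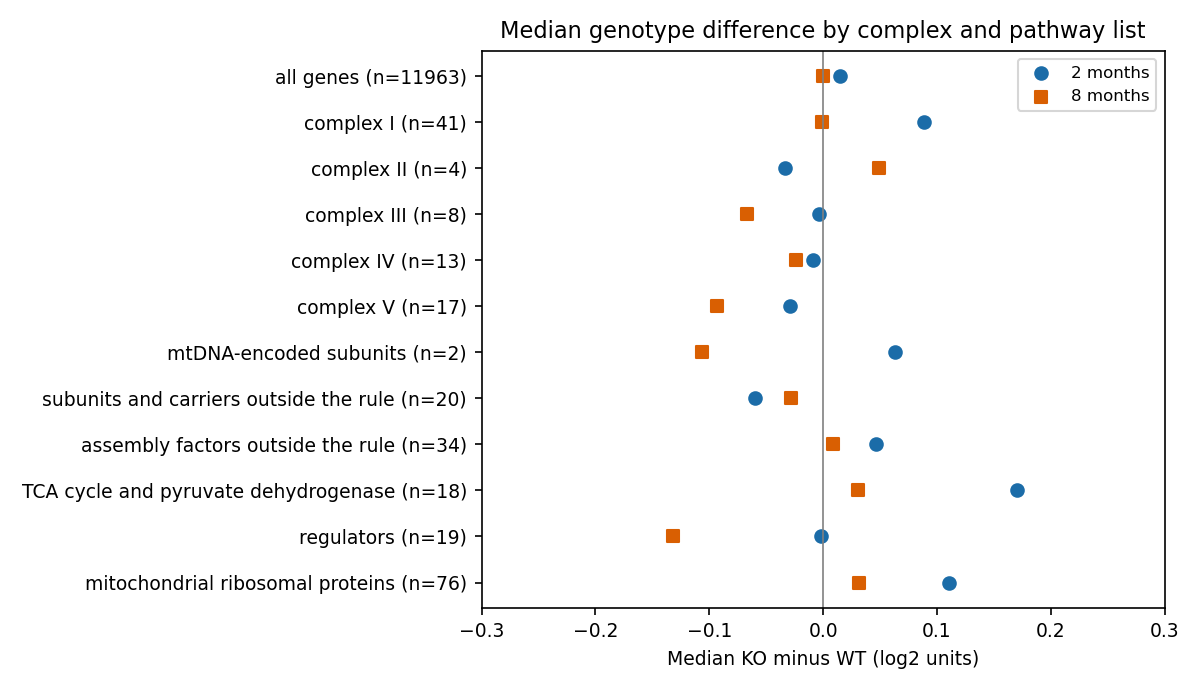
Median KO minus WT in log2 units (horizontal axis) for each complex and pathway list (rows, with the number of genes in the fit), with circles for 2 months and squares for 8 months. All medians lie between -0.13 and 0.17, and the circle of the tricarboxylic acid cycle list is the one farthest to the right.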

How the data were processed

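The deposited values are on the log2 scale. The submitters' processing notes name RMA and, as the software, version 1.0v of Affymetrix Expression Console. They do not say which arrays were normalized together. RMA compresses differences of dim probe sets. Arrays have no read depth, and the number of arrays limits the precision.

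Of 35556 probe sets, 21789 had 1 gene symbol, 1621 had several and 12146 were not listed in the platform table. Probe sets of 1 gene were averaged on the log2 scale (17 of the 89 genes had more than 1). All 89 gene identifiers matched the RefSeq table of GRCm38.p6. Genes with a mean over the 4 arrays above the 40th percentile, 3.34, entered the fit. It used limma 3.58.1 (lmFit, then eBayes with an intensity trend; R 4.3.3), additive terms for genotype and age, Benjamini-Hochberg adjustment over 11963 genes and a threshold of 0.05. Rose and fell are used for genes past it. The fit was also run on simulated data, with independent noise of the fit's own SDs and additive genotype differences. Such data take the model's spread as right, so they cannot show whether its p-values hold for 4 single pools. Genes named are those that passed, the extremes of each complex and list, the Sdh genes and the isoform families, plus genes chosen for their role after their values were seen. The gene lists and the members were chosen with earlier results of these data known. Alternatives were the filter, trend, normalization, probe set choice, model and membership.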

Additional observations from a re-analysis of the deposited data

Results flagged for a closer look

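Ndufa12, an accessory subunit of complex I, differed between the genotypes in opposite directions at the 2 ages. It read 6.0 in WT and 6.56 in KO at 2 months, and 6.30 in WT and 5.94 in KO at 8 months, so KO minus WT was 0.56 and -0.36. The difference at 8 months minus that at 2 months was -0.92. It was singled out because it was at least 1.2-fold apart each way, as were 96 of 11963 genes (0.802%). With 1 array per group the difference between the ages was not tested.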

How the results depend on the processing

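Against 5 genes called for genotype, 3 were called without the filter on low values and 3 without the intensity trend. Limiting membership to the 73 structural subunits also gave 3. That setting reuses the main fit and only drops Ndufaf1 and Cox6b2, which are not among the 73, from the count. Centring arrays on their medians gave 4 that rose and 0 that fell, with 3 shared. Quantile normalization again and cyclic loess each gave 10, of which 6 rose and 4 fell and 5 were shared, and leaving out the other factor gave 9. No oxidative phosphorylation gene was called for age under any of the 8 alternatives. Over all genes, 14 were called for age with arrays centred on their medians, against 1 in the main fit. Of 60 complex medians under alternatives 12 moved by more than the SD between the 2 ages or genotypes. Each such SD comes from only 2 values. Some of the 60 could not move. In complexes II, III and V all genes were above the filter and structural, so the filter and membership alternatives left them as they were. The probe set choice could not change complex II, whose genes have 1 probe set each. The count of 12 is therefore no measure of how stable the medians are. KO minus WT, averaged over the ages, moved in complex III from -0.06 to -0.12 under quantile normalization and -0.11 under cyclic loess. In complex IV it moved from 0.03, although the median at each single age was below 0, to 0.0058 without the filter, 0.0671 under median centring, -0.0222 under quantile normalization and -0.0017 under cyclic loess. The age difference moved in complex II from -0.0137 to -0.0338 under median centring, 0.0198 under quantile normalization and 0.0149 under cyclic loess, and in complex V from -0.0151 to -0.0351, 0.0042 and 0.0098. The cause was not tested. Leaving out 1 array leaves no residual degree of freedom, so it gives a value with no test, the difference at the age or in the genotype that stays complete. So read, KO minus WT ranged from -0.00082 to 0.09 in complex I, -0.03 to 0.05 in complex II, -0.0668 to -0.0035 in complex III, -0.0242 to -0.0087 in complex IV and -0.09 to -0.03 in complex V. In complexes I to V the age difference ranged, in this order, from -0.07 to 0.03, -0.022 to -0.0055, -0.0527 to -0.0042, -0.08 to -0.01 and -0.03 to 0.0011. No paired analysis was possible because each group is 1 pooled array and the labels give no replicate numbers.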
